A study of Mus musculus with 8 samples.

Results

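The collagen gene family was defined here as every gene whose symbol is Col, a number, a and a number, such as Col1a1. The count table held 44 such genes among 55450, and 41 of them were among the 16911 genes with enough reads to be tested. The family was described in 8 tumours grown from MOC1, a mouse oral squamous carcinoma cell line, under the skin of the flank of C57BL/6 mice. All mice received anti-PD-1, an antibody that blocks an inhibitory receptor of T cells, together with antisense oligonucleotides (ASOs) for 32 days. In 3 mice these were control ASOs, and in 5 mice they were directed against Smyd3, which encodes a lysine methyltransferase. The labels mark 2 of the Smyd3 ASO tumours as responders (numbered 1 and 3) and 2 as non-responders, and give the tumour numbered 2 no mark. No tumour of this set went without anti-PD-1 or without an ASO, the tumours derive from 1 cell line, and tumour cells and host stroma were sequenced together. The labels call the tissue oral tongue carcinoma although the implants were in the flank.

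Collagens are secreted proteins built from chains with long runs of glycine-containing repeats that wind around each other into a helix. Fibrillar collagens (types I, II, III, V, XI, XXIV and XXVII) make the tensile fibres of connective tissue and in tumours come mainly from fibroblasts. Type IV, with the multiplexins XV and XVIII, belongs to basement membranes, and the FACIT collagens decorate the surface of fibrils. In squamous epithelium, types VII and XVII tie the basal keratinocytes to the basement membrane.

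Polyadenylated RNA was sequenced to a depth of 22103853 to 27258700 expected counts a tumour, and levels are given as CPM, the counts of a gene scaled to a common library total. The oligonucleotide target Smyd3 was at 10.7, 11.9 and 10.6 CPM in the control tumours, 8.68 and 4.38 CPM in the responders, 4.58 CPM in the unmarked tumour and 9.26 and 4.88 CPM in the non-responders. Every Smyd3 ASO tumour was below every control, but the log2 difference of -0.80 (SE 0.29) did not pass (edgeR adjusted p = 0.246). Basal keratinocyte markers such as Krt5 (6770 to 14500 CPM) and Krt14 (6760 to 14100 CPM) were high in all 8 tumours, as the tissue label says. The skeletal muscle markers stood apart: their summed level was 35.9 to 109 CPM in control tumours and 754 to 13000 CPM in Smyd3 ASO tumours. The labels describe each library as a tumour of the series and say nothing of separate implantation days or batches, so each test measures the spread between these tumours only.

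Start regions are shown for the type IX genes Col9a1 and Col9a2 and for Col6a3, on which the comparisons below turn. Those of Col7a1, which did not overlap between responders and non-responders, and of Col3a1 are also shown. Col3a1 has a match to TATAAA at -117, counted from its RefSeq start. Sequences are RefSeq windows on GRCm38.p6 (mm10), written 5′ to 3′ on the strand of the gene and kept to bases that lie in no annotated exon. Capitals mark matches on either strand to TATAAA (the TATA box), CCAAT (the CCAAT box), GGGCGG (the GC box) or CACGTG (an E-box). The Col9a1 window is chr1:24177490-24177609 (plus strand), the 120 bases before the upstream start. The Col9a2 window is chr4:121039316-121039384 (plus strand), 250 to 182 bases before the RefSeq start. The others are the 120 bases before the start, at chr1:90843972-90844091 (minus strand) for Col6a3, chr9:108953466-108953585 (plus strand) for Col7a1 and chr1:45311418-45311537 (plus strand) for Col3a1.
Col9a1: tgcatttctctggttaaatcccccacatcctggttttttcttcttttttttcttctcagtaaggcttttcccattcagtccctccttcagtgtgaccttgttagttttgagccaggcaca
Col9a2: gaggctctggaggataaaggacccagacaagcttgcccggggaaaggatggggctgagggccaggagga
Col6a3: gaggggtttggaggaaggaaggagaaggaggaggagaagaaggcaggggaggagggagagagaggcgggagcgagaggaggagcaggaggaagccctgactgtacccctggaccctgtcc
Col7a1: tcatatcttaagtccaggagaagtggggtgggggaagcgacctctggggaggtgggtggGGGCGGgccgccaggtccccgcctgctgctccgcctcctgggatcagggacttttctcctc
Col3a1: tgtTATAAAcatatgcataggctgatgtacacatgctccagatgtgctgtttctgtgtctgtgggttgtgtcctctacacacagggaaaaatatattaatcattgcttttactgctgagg
Of the 44 genes, 35 had a RefSeq start region, with 38 windows of 250 upstream bases between them. Col1a1, Col2a1, Col4a3, Col5a2, Col9a3, Col12a1, Col14a1, Col22a1 and Col26a1 were not matched. TATAAA was in 13.2% of the collagen windows and 12.4% of all 32851 windows, and CCAAT in 34.2% and 33.8%. GGGCGG was in 57.9% of the collagen windows and 32.7% of all windows, and the windows' median GC content was 59% and 52.4%. No collagen window held CACGTG, which 6.02% of all windows held. Outside the stretches printed, and counted from the RefSeq start, the Col9a2 window held GGGCGG at -26 and -14 and the Col7a1 window held CCAAT at -249. The window of a second, downstream start of Col9a1 held CCAAT at -18.

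Collagen RNA made up 1.25%, 2.19% and 1.42% of the counts in the control tumours and 0.944% to 1.05% in the Smyd3 ASO tumours. The summed level of the 44 genes was 13000, 22800 and 14000 CPM in the controls, 9080 and 10400 CPM in the responders, 9740 CPM in the unmarked tumour and 9900 and 9600 CPM in the non-responders. The arms did not overlap in this sum, and responders and non-responders did. Control tumour 2 was the highest of the 8 tumours for 24 of the 41 genes tested. Where a log2 fold change or median between arms given below moves by over 1.5 times without this tumour, the value without it follows. In bulk tissue, fewer cells of a type and less RNA per cell cannot be told apart.

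Per kilobase of transcript, type I and type III chains led the family, with means over the 8 tumours of 389 CPM per kilobase for Col1a2, 337 for Col1a1 and 332 for Col3a1. The range of Col1a2 over tumours, 276 to 716, overlapped those of Col1a1 (225 to 697) and Col3a1 (195 to 614). Within a tumour the ratio of Col1a1 to Col1a2 per kilobase was 0.748 to 0.973, so Col1a2 was above Col1a1 in every tumour. The ratio of Col3a1 to Col1a1 was 0.703 to 1.58, so the order of these 2 changed between tumours. The keratinocyte collagen Col17a1 came next, at 256 CPM per kilobase, ahead of Col18a1 (121), Col6a1 (103) and Col4a1 (97). The 3 leading chains supplied 50.6% to 51.9% of all collagen CPM per kilobase in the controls and 42.9% to 53.1% in the Smyd3 ASO tumours, and so overlapped. The FACIT share was 3.25% to 3.91% in controls and 3.99% to 6.44% in Smyd3 ASO tumours, and the short-chain network share (types VIII and X) was 1.80% to 2.19% and 2.33% to 3.53%. In these 2 classes each Smyd3 ASO tumour had a larger share than each control, of a collagen total that was itself lower. The summed FACIT level was lower without overlap, at 410 to 592 CPM in Smyd3 ASO tumours and 664 to 1030 CPM in controls. The short-chain network sums overlapped, at 200 to 295 and 220 to 436 CPM. At the other end, Col19a1, Col22a1 and Col26a1 were near 0 throughout, at no more than 0.0461, 0.652 and 0.218 CPM, and were not tested.

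**Figure D1:**
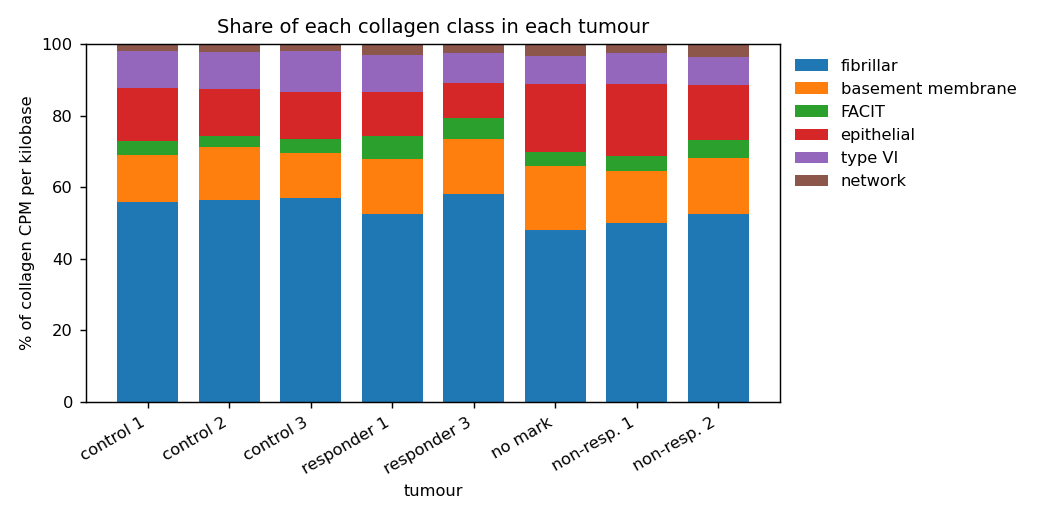
Stacked bars give the share of each collagen class in the CPM per kilobase of all collagen genes (y axis, percent) for each tumour (x axis); Col26a1 and Col28a1 are too small to show. Fibrillar collagens take 48.0% to 58.1% of every tumour, and the epithelial share is lowest in responder 3, at 9.65%.

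The Smyd3 ASO arm was compared with the control arm by edgeR's quasi-likelihood test over all 16911 genes. No gene passed an adjusted p of 0.05, among the collagens or elsewhere (0% called), and the lowest adjusted p of any gene was 0.0656. At an unadjusted p under 0.05, 17 of the 41 collagens were lower in the Smyd3 ASO tumours and 2 higher, where 7.0% of all genes were lower and 8.55% higher. DESeq2, run without the count filter, called 14 collagens, 12 lower and 2 higher, among 1029 genes, 352 lower and 677 higher. With limma voom no collagen was called. The log2 fold change was below 0 for 27 of 41 collagens (48.2% of all genes), with a median of -0.51 (0.013 over all genes). In 12 collagens every Smyd3 ASO tumour was below every control, as in 5.14% of all genes, and in 1 every tumour was above, as in 5.45%. Without control tumour 2 the median was -0.25, with 21 genes below 0 and 20 above.

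The other comparisons used the response marks. Between responders and non-responders edgeR called no collagen and no gene (0% called, lowest adjusted p 0.314). At an unadjusted p under 0.05, 3 collagens were higher in responders (4.74% of all genes) and 3 lower (3.75%). DESeq2 called 1 collagen among 230 genes, and limma voom called no collagen. The median log2 fold change of the collagens was 0.21 (0.11 without responder 3), and with 2 tumours a side 14 were higher without overlap (20.3% of all genes) and 7 lower (18.9%). Responders against controls gave 3 called collagens, where 1.66% of all genes were called: Col9a1 and Col9a2 rose (1.38% of all genes were called higher) and Col12a1 fell (0.272%). Non-responders against controls gave none (0% called, lowest adjusted p 0.0779). DESeq2 called 6 collagens among 336 genes there, and limma voom called no collagen. At an unadjusted p under 0.05, 15 collagens were lower (4.14% of all genes) and 1 higher (5.10%). At that unadjusted level, responders against controls had 4 collagens higher (9.62% of all genes) and 14 lower (6.99%). The last 2 comparisons share the control tumours.

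**Figure D2:**
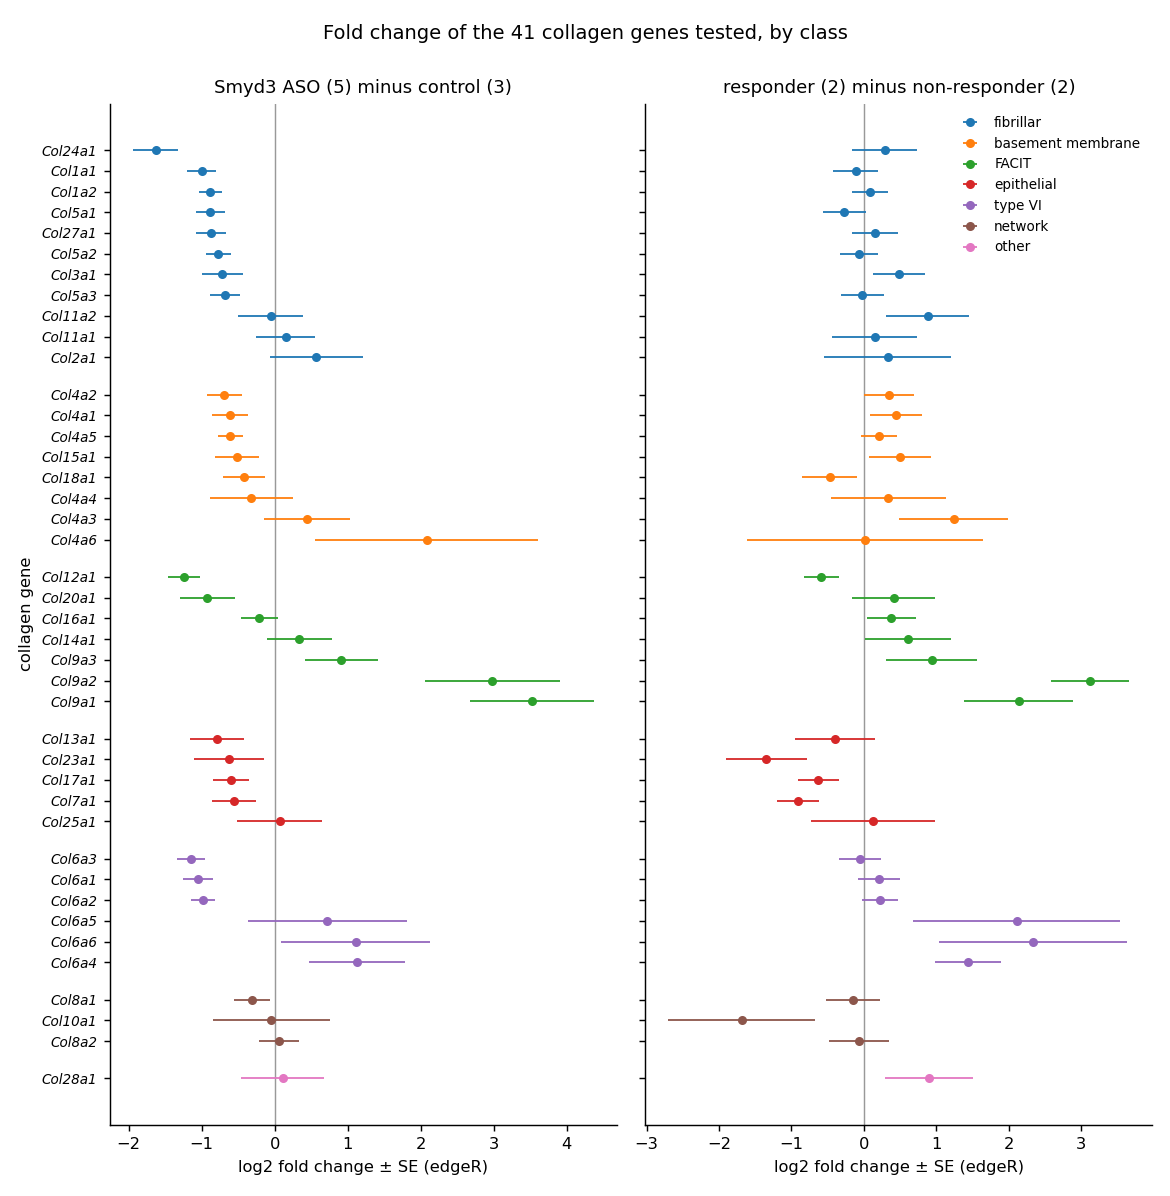
Points give the log2 fold change (x axis) and bars its SE for each of the 41 genes tested (y axis), coloured by class, for Smyd3 ASO minus control tumours (left) and responders minus non-responders (right). On the left most fibrillar genes lie below 0 and the type IX chains above, and on the right Col7a1 and Col17a1 lie below 0, as does Col23a1, which is at -0.0054 without non-responder 1.

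None of the 11 fibrillar collagens tested passed in the arm comparison, but most had lower values in the Smyd3 ASO tumours. Of the 11, 9 were below 0 (48.2% of all genes), 8 were lower at an unadjusted p under 0.05 (7.0%) and 7 were lower without overlap between arms (5.14%), with a median log2 fold change of -0.77 that was -0.49 without control tumour 2. Col1a1 (chr11:94936224-94953042, plus strand), the main chain of type I collagen, was at 2240, 4130 and 2360 CPM in controls, 1360 and 1490 CPM in responders, 1330 CPM in the unmarked tumour and 1650 and 1430 CPM in non-responders. All 5 Smyd3 ASO tumours lay below the lowest control, and the mean of 1450 ± 125 CPM (SD, n = 5) was 49.9% of the control mean of 2910 ± 1060 CPM (SD, n = 3). The log2 fold change was -1.0 (SE 0.20, edgeR adjusted p = 0.0939), or -0.65 without control tumour 2.

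Its partner Col1a2 (chr6:4504814-4541544, plus strand) was at 2430, 3830 and 2480 CPM in controls, 1500 and 1760 CPM in responders, 1610 CPM in the unmarked tumour and 1580 and 1470 CPM in non-responders. The groups were again apart, with a log2 fold change of -0.88 (SE 0.16, edgeR adjusted p = 0.0910). Type III collagen, encoded by Col3a1 (chr1:45311538-45349706, plus strand), forms fibres together with type I in skin and vessels. Its levels were 1730, 3420 and 2220 CPM in controls, 1450 and 2210 CPM in responders, 1150 CPM in the unmarked tumour and 1090 and 1530 CPM in non-responders. Here responder 3 lay between controls 1 and 3, so the arms overlapped, and the log2 fold change of -0.72 (SE 0.28) had an edgeR adjusted p of 0.266 and was -0.40 without control tumour 2.

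The 3 type V chains, which set the diameter of type I fibrils, were all without overlap: Col5a2 was at 390 to 682 CPM in controls and 266 to 317 CPM in Smyd3 ASO tumours, Col5a1 at 291 to 559 and 183 to 247 CPM, and Col5a3 at 87.3 to 158 and 61.1 to 77.4 CPM. The minor fibrillar genes also did not overlap, Col27a1 at 10.6 to 15.2 and 5.40 to 8.77 CPM and Col24a1 at 4.57 to 6.11 and 1.28 to 2.72 CPM. Col24a1, named after its values were seen, had the lowest log2 fold change of the family, -1.63 (SE 0.31, edgeR adjusted p = 0.0910). The cartilage-type fibrillar genes Col11a1 (12.4 to 29.7 CPM in controls, 14.5 to 39.1 CPM in Smyd3 ASO tumours), Col11a2 and Col2a1 overlapped between arms, and Col2a1, the main cartilage collagen, was at most 0.815 CPM. Between responders and non-responders the fibrillar median was 0.15, and -0.15 without responder 3. Col1a1, Col1a2 and Col3a1 differed there by -0.11 (SE 0.31), 0.09 (SE 0.25) and 0.48 (SE 0.36), and Col3a1 by 0.15 without responder 3.

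**Figure D3:**
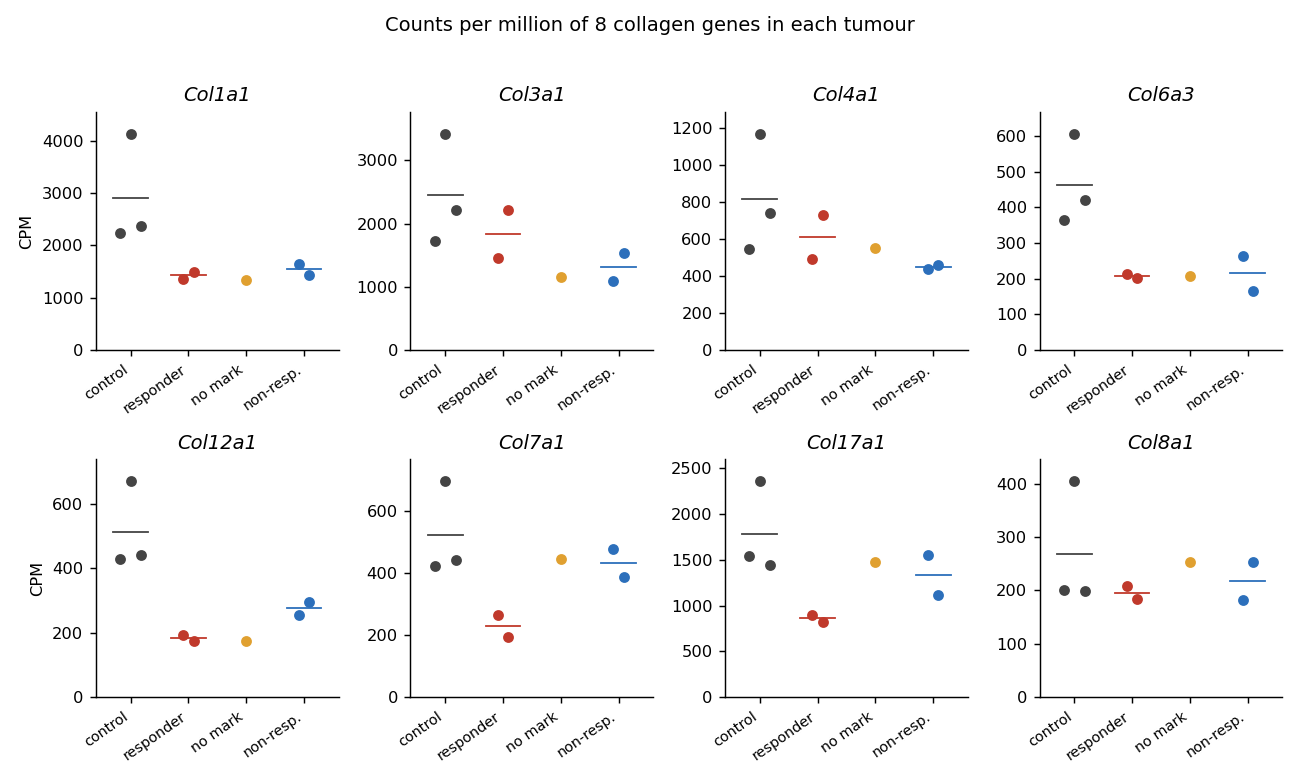
Each point is the CPM of a gene in 1 tumour (y axis from 0), grouped by arm and response mark (x axis), and lines are group means. Col1a1, Col6a3 and Col12a1 separate all 5 Smyd3 ASO tumours from the 3 controls, while the 2 responders stand below the other 6 tumours for Col7a1 and Col17a1.

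Type VI collagen, which forms beaded filaments around cells, was split. The 3 abundant chains did not overlap between arms, and the 3 rare ones did. Col6a3 (chr1:90765923-90843971, minus strand) was at 364, 606 and 421 CPM in controls, 212 and 203 CPM in responders, 207 CPM in the unmarked tumour and 264 and 166 CPM in non-responders. Every Smyd3 ASO tumour was below every control, and the log2 fold change was -1.14 (SE 0.19, edgeR adjusted p = 0.0811), or -0.88 without control tumour 2. This was the smallest p of the family in the arm comparison. Leaving out 1 tumour at a time gave edgeR adjusted p-values from 0.0266, without non-responder 1, to 0.184, and 0.158 without control tumour 2.

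Col6a1 (chr10:76708792-76726168, minus strand) was at 446, 860 and 569 CPM in controls, 363 and 297 CPM in responders, 275 CPM in the unmarked tumour and 284 and 287 CPM in non-responders. Col6a2 (chr10:76595762-76623630, minus strand) was at 315, 532 and 371 CPM in controls, 221 and 231 CPM in responders, 187 CPM in the unmarked tumour and 209 and 178 CPM in non-responders. Neither gene overlapped between arms, and the log2 fold changes were -1.05 (SE 0.20) and -0.98 (SE 0.17), with edgeR adjusted p-values of 0.0910 and 0.0865. The chains encoded by Col6a4, Col6a5 and Col6a6, which can stand in for the third chain, were rare and not lower. Col6a4 was at 0.665, 0.892 and 1.3 CPM in controls, 3.29 and 4.02 CPM in responders, 0.466 CPM in the unmarked tumour and 1.24 and 1.44 CPM in non-responders. Both responders were above the other 6 tumours for Col6a4, by a log2 fold change of 1.44 (SE 0.45) over non-responders (edgeR adjusted p = 0.533).

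Basement membrane collagens had a median below 0 in the Smyd3 ASO arm, which rested on control tumour 2. The median log2 fold change of the 8 genes was -0.47, and 0.0056 without that tumour. Col4a1 (chr8:11198423-11312826, minus strand), a chain of the ubiquitous type IV network, was at 547, 1170 and 739 CPM in controls, 494 and 733 CPM in responders, 553 CPM in the unmarked tumour and 437 and 461 CPM in non-responders. Its partner Col4a2 (chr8:11312805-11449287, plus strand) was at 385, 856 and 508 CPM in controls, 352 and 444 CPM in responders, 388 CPM in the unmarked tumour and 296 and 329 CPM in non-responders. The arms overlapped for both, and the log2 fold changes were -0.61 (SE 0.25, edgeR adjusted p = 0.295) and -0.69 (SE 0.24, edgeR adjusted p = 0.234), or -0.25 and -0.29 without control tumour 2.

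Both responders were above both non-responders for Col4a1 and Col4a2, by log2 fold changes of 0.45 (SE 0.36) and 0.35 (SE 0.35), with edgeR adjusted p-values of 0.742 and 0.800, or 0.14 and 0.17 without responder 3. Col18a1 (chr10:77052178-77166548, minus strand), the precursor of the angiogenesis inhibitor endostatin, ran the other way, at 614, 1030 and 419 CPM in controls, 457 and 346 CPM in responders, 648 CPM in the unmarked tumour and 547 and 566 CPM in non-responders. Responders were below non-responders by a log2 fold change of -0.47 (SE 0.38, edgeR adjusted p = 0.748), or -0.28 without responder 3. Col15a1 was at 88.3 to 215 CPM in controls and 77.4 to 134 CPM in Smyd3 ASO tumours, and Col4a5, at 47.7 to 81.3 and 36.1 to 46.9 CPM, was the member of this class without overlap. Col4a3, Col4a4 and Col4a6, chains of specialised basement membranes such as that of the kidney glomerulus, were at most 4.38, 15.3 and 0.616 CPM.

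Neighbouring genes gave a view of shared start regions. Col4a1 and Col4a2 lie head to head on chromosome 8 and their annotated first exons overlap by 22 bases, chr8:11312805-11312826 on the Col4a2 strand, with a GC box match in capitals.
Col4a1/Col4a2 shared bases: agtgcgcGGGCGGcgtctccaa
Col4a3 and Col4a4 also start head to head, 71 bases apart, and were both low, whereas Col4a5 and Col4a6 start 1.31 kb apart and differed in level (36.1 to 81.3 CPM against 0 to 0.616 CPM). Col3a1 and Col5a2 lie tail to tail 24.6 kb apart. The kit preserved strand according to its name, and how strand was used in counting is not given in the sources used here, so reads over such overlaps may be split.

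The FACIT class held both directions. At an unadjusted p under 0.05, 2 of the 7 genes tested were higher (8.55% of all genes) and 2 lower (7.0%). Its median log2 fold change of 0.34 between arms was -0.057 without responder 3 and 0.60 without control tumour 2. Col9a1 (chr1:24177610-24252684, plus strand), a chain of the type IX collagen of cartilage and vitreous, was at 0.624, 0.134 and 0.757 CPM in controls, 4.79 and 14.1 CPM in responders, 6.17 CPM in the unmarked tumour and 1.80 and 2.48 CPM in non-responders. The 8 tumours ranked by group without overlap, controls lowest and responders and the unmarked tumour highest. Col9a1 rose in responders against controls, by a log2 fold change of 4.20 (SE 0.71, edgeR adjusted p = 0.0419), which limma voom did not call (4.28, adjusted p = 0.0857), and in non-responders the value was 2.07 (SE 0.71, edgeR adjusted p = 0.463).

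Col9a2 (chr4:121039385-121055322, plus strand), the second chain, was at 0.582, 0.268 and 0.631 CPM in controls, 6.98 and 6.38 CPM in responders, 4.85 CPM in the unmarked tumour and 0.507 and 1.0 CPM in non-responders. Non-responder 1 lay within the controls, while both responders and the unmarked tumour were above all others. Col9a2 rose in responders against controls, by 3.74 (SE 0.48, edgeR adjusted p = 0.0245). In non-responders against controls it was 0.61 (SE 0.50, edgeR adjusted p = 0.751), or 0.035 without non-responder 2. Between responders and non-responders the log2 fold change was 3.13 (SE 0.54) for Col9a2 and 2.14 (SE 0.75) for Col9a1, the latter 1.16 without responder 3. These did not pass with edgeR, at adjusted p-values of 0.403 and 0.543, and DESeq2 called Col9a2 (adjusted p = 3.65e-05).

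The calls against controls depended on single tumours. Without responder 3 the edgeR adjusted p was 0.243 for Col9a1 and 0.0944 for Col9a2, without control 1 it was 0.164 and 0.118, and without control 3 it was 0.108 and 0.0791. Col9a1 also missed the threshold without control 2 (0.0575), non-responder 1 (0.0752) or non-responder 2 (0.0737). Col9a3 (chr2:180597790-180622189, plus strand), the third chain, was far more abundant and less regular, at 44.9, 18.7 and 48.8 CPM in controls, 110 and 85.8 CPM in responders, 53.3 CPM in the unmarked tumour and 22.2 and 80.1 CPM in non-responders. Its arms overlapped, and the log2 fold change was 0.91 (SE 0.50, edgeR adjusted p = 0.428), or 0.60 without control tumour 2. Exons of Col9a3 share 234 bases with Tcfl5 on the opposite strand.

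Some markers of other tissues were also higher in the responders than in the controls. Skeletal muscle markers summed to 2600 and 13000 CPM in responders, 5770 CPM in the unmarked tumour and 754 and 1110 CPM in non-responders, against at most 109 CPM in controls, with all 16 markers above 0 in the arm comparison. Sox10, a transcription factor of neural crest and glia, was at 0.166, 0.178 and 4.08 CPM in controls, 63.2 and 70.3 CPM in responders, 13.4 CPM in the unmarked tumour and 5.71 and 3.70 CPM in non-responders. The other 5 genes of the Schwann cell marker list, from which Sox10 comes, were below 0 in the arm comparison, and the median of the list was -0.48. Of 5 cartilage markers tested, 4 were above 0 in the arm comparison, with a median of 1.7 (1.2 without control tumour 2). In responders against controls 3 were above 0 and 2 below, with a median of 0.54. Between responders and non-responders 2 were above 0 and 3 below, with a median of -0.035. Comp, a matrix protein of cartilage and tendon, was at 0.847 to 1.56 CPM in controls, 6.53 and 11.6 CPM in responders, 1.40 CPM in the unmarked tumour and 1.80 and 16.7 CPM in non-responders. Cnmd (chondromodulin) was at 0 to 0.505 CPM in controls, 2.51 and 4.17 CPM in responders, 0 CPM in the unmarked tumour and 0.0461 and 0.741 CPM in non-responders. Both responders were thus above the other 6 tumours for Cnmd, and Comp was highest in non-responder 2. Sox9 was at 224 to 255 CPM in controls and 102 to 226 CPM in Smyd3 ASO tumours. The cartilage markers Matn1 and Ucma were at most 0.109 and 0.365 CPM and at 0 in 6 of 8 tumours each, and Col2a1 was near 0 as given above. Adipocyte markers summed to 17.0 to 42.6 CPM in controls, 63.9 and 282 CPM in responders and 39.2 and 52.2 CPM in non-responders, and the unmarked tumour, at 30.5 CPM, lay within the controls. The part of these tissues in the type IX values was not tested beyond a fit with a muscle score, in which the arm difference of Col9a1 was -1.19 and that of Col9a2 -2.21. The muscle score does not overlap between arms, so that fit extrapolates.

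**Figure D4:**
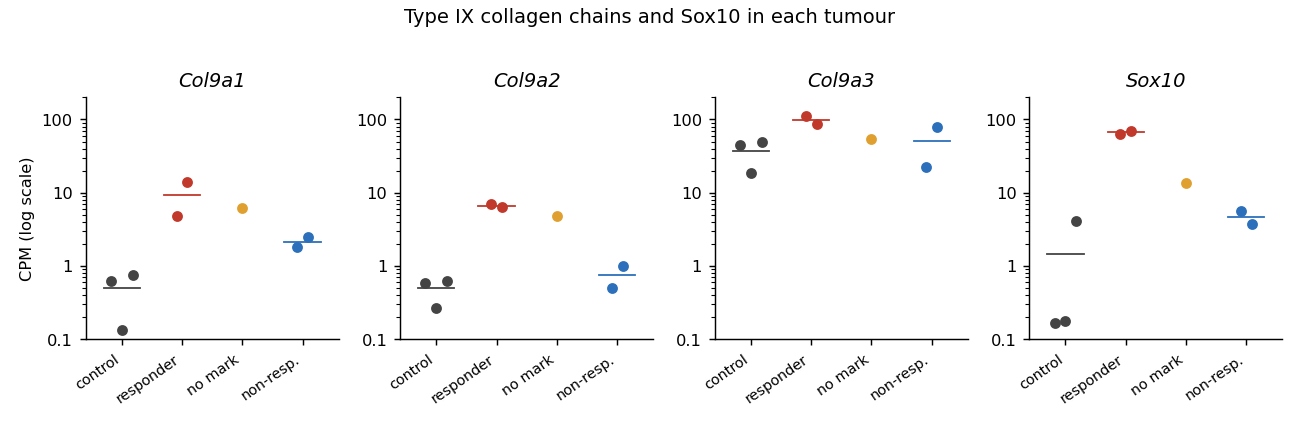
Each point is the CPM of a gene in 1 tumour on a log axis shared by the panels (y axis), grouped by arm and response mark (x axis), with lines at group means. Col9a1 and Col9a2 are highest in the 2 responders and the unmarked tumour, Col9a3 overlaps between arms, and Sox10 is at 63.2 and 70.3 CPM in the responders.

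Col12a1 (chr9:79598991-79718831, minus strand), a FACIT collagen of dense connective tissue, was the collagen called lower. It was at 427, 670 and 442 CPM in controls, 192 and 173 CPM in responders, 175 CPM in the unmarked tumour and 256 and 294 CPM in non-responders. No Smyd3 ASO tumour reached the lowest control, and both responders were below both non-responders. Col12a1 fell in responders against controls by 1.49 on the log2 scale (SE 0.23, edgeR adjusted p = 0.0315). In non-responders the value was -0.90 (SE 0.22, edgeR adjusted p = 0.367), and responders differed from non-responders by -0.59 (SE 0.24, edgeR adjusted p = 0.576). The call was lost without control 1 (adjusted p = 0.110), control 3 (0.0835), responder 1 (0.0934), responder 3 (0.261), non-responder 1 (0.0591) or non-responder 2 (0.0600).

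Col16a1 (chr4:130047840-130099283, plus strand), a FACIT collagen of skin, was at 156, 265 and 154 CPM in controls, 205 and 190 CPM in responders, 131 CPM in the unmarked tumour and 190 and 112 CPM in non-responders, and the arms overlapped. Its log2 fold change of -0.21 (SE 0.25, edgeR adjusted p = 0.740) turned to 0.11 without control tumour 2. Col14a1 was at 33.0 to 72.0 CPM in controls and 33.5 to 120 CPM in Smyd3 ASO tumours. Col20a1 was at 1.37 to 3.11 and 0.737 to 1.58 CPM.

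Epithelial anchoring and transmembrane collagens were lower in responders than in non-responders in 4 of 5 genes, with a median log2 fold change of -0.63 (-0.38 without non-responder 1), and 3 of the 5 did not overlap (18.9% of all genes). Between arms the median of this class was -0.60, or -0.33 without control tumour 2. Col17a1 (chr19:47646344-47692094, minus strand), the hemidesmosomal collagen of basal keratinocytes, was at 1540, 2360 and 1440 CPM in controls, 898 and 825 CPM in responders, 1470 CPM in the unmarked tumour and 1550 and 1120 CPM in non-responders. The responders were the lowest of the 8 tumours, and the unmarked tumour and non-responder 1 lay within the controls. Between arms Col17a1 differed by -0.60 (SE 0.25, edgeR adjusted p = 0.299), or -0.33 without control tumour 2. Responders differed from non-responders by -0.63 (SE 0.28, edgeR adjusted p = 0.595), or -0.38 without non-responder 1, and from controls by -1.05 (SE 0.26, edgeR adjusted p = 0.111), and non-responders from controls by -0.41 (SE 0.26, edgeR adjusted p = 0.668), or -0.14 without control tumour 2 and -0.66 without non-responder 1.

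Col7a1 (chr9:108953586-108984875, plus strand), which forms the anchoring fibrils under the epidermis, was at 423, 695 and 441 CPM in controls, 265 and 194 CPM in responders, 443 CPM in the unmarked tumour and 475 and 385 CPM in non-responders. Again the responders were the lowest tumours, and the unmarked tumour and non-responder 1 lay within the controls. The log2 fold change was -0.91 (SE 0.29, edgeR adjusted p = 0.537) against non-responders and -1.18 (SE 0.27, edgeR adjusted p = 0.0922) against controls. Between arms Col7a1 differed by -0.56 (SE 0.30, edgeR adjusted p = 0.415), or -0.28 without control tumour 2. Without the filter on low counts, Col7a1 and Col17a1 were called lower in responders against controls (edgeR adjusted p = 0.0376 and 0.0391).

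Col23a1 (chr11:51289920-51583918, plus strand), a transmembrane collagen, was at 22.7, 29.8 and 27.3 CPM in controls, 9.81 and 10.3 CPM in responders, 14.9 CPM in the unmarked tumour and 41.3 and 10.1 CPM in non-responders. Non-responder 1 was the highest tumour of all, and the other 4 Smyd3 ASO tumours were below every control. Against controls the arm's log2 fold change was -0.62 (SE 0.48, edgeR adjusted p = 0.582), and -1.24 (adjusted p = 0.0266) without non-responder 1. Responders differed from non-responders by -1.35, and by -0.0054 without non-responder 1. Col13a1 was at 2.95 to 9.54 CPM in controls, 2.56 and 3.01 CPM in responders and 3.09 and 4.27 CPM in non-responders, and Col25a1 at 1.11 to 12.2 CPM in all tumours.

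Basal keratinocyte markers were also lower in responders, where they summed to 18600 and 21300 CPM, than in non-responders (23900 and 34800 CPM), and controls were at 26400 to 36100 CPM. Of 10 such markers 8 were below 0 between responders and non-responders, with a median of -0.60 and 5 without overlap (18.9% of all genes), and in controls against all Smyd3 ASO tumours the sums overlapped. All 10 markers were detected in each tumour. Hair follicle markers summed to 42.3 and 63.6 CPM in responders, 126 CPM in the unmarked tumour, 162 and 560 CPM in non-responders and 45.4 to 79.6 CPM in controls. All 6 tested were below 0 between responders and non-responders, with a median of -4.4 and 3 without overlap (18.9% of all genes). The part of these markers in the Col17a1 and Col7a1 values was not tested.

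Short-chain network collagens and the remaining genes showed no separation of arms in their CPM. Col8a1 (chr16:57624258-57754737, minus strand), found around vessels and in wound stroma, was at 200, 405 and 199 CPM in controls, 209 and 183 CPM in responders, 253 CPM in the unmarked tumour and 182 and 253 CPM in non-responders. Its log2 fold change of -0.31 (SE 0.25, edgeR adjusted p = 0.599) turned to 0.13 without control tumour 2. Col8a2 (chr4:126286793-126314330, plus strand) was at 29.7, 29.2 and 20.5 CPM in controls, 24.3 and 31.0 CPM in responders, 24.8 CPM in the unmarked tumour and 16.8 and 41.2 CPM in non-responders, so both ends of its range were non-responders.

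Col10a1 (chr10:34389981-34397085, plus strand), the collagen of hypertrophic cartilage, was at 0.748, 2.01 and 0.210 CPM in controls, 0.406 and 0.290 CPM in responders, 1.82 CPM in the unmarked tumour and 1.66 and 0.610 CPM in non-responders. Responders were below non-responders at these low levels, with a log2 fold change of -1.69 (SE 1.01, edgeR adjusted p = 0.666), or -0.81 without non-responder 1. Col28a1 (chr6:7997808-8192617, minus strand), a von Willebrand factor domain collagen, was at 3.70, 9.19 and 3.49 CPM in controls, 9.45 and 8.44 CPM in responders, 1.98 CPM in the unmarked tumour and 2.72 and 6.88 CPM in non-responders. The responders were above the non-responders, by 0.90 (SE 0.61, edgeR adjusted p = 0.702), with 0.38 without non-responder 1 and 1.71 without non-responder 2, and the arms overlapped.

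Ratios of chains within a tumour do not depend on depth or scaling. The ratio of Col1a1 to Col1a2 counts stayed within 0.829 to 1.08 over the 8 tumours, that of Col4a1 to Col4a2 within 1.36 to 1.65 and that of Col6a1 to Col6a2 within 1.28 to 1.64. Ratios between types spanned a wider range, with Col3a1 to Col1a1 at 0.660 to 1.49 and Col4a1 to Col1a1 at 0.244 to 0.493. None of 8 ratios passed a p of 0.05 between the arms in an exact two-sided permutation test over 56 splits, which can give no p below 0.0179. The lowest p was 0.125, for Col4a1 to Col1a1, whose mean log2 ratio was -1.84 ± 0.181 (SD, n = 3) in controls and -1.46 ± 0.341 (SD, n = 5) in Smyd3 ASO tumours (exact permutation test, 0.625 after Benjamini-Hochberg adjustment over the 8).

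Genes that modify and fold procollagen in the endoplasmic reticulum act before secretion. Of 22 tested, 17 were below 0 in the Smyd3 ASO arm (48.2% of all genes), with a median of -0.20 (12 and -0.047 without control tumour 2). At an unadjusted p under 0.05, 6 were lower (7.0% of all genes) and none higher (8.55%). P4ha2, a prolyl hydroxylase subunit, was at 156, 298 and 160 CPM in controls, 104 and 68.1 CPM in responders, 108 CPM in the unmarked tumour and 82.1 and 81.5 CPM in non-responders. The arms did not overlap, and the log2 fold change was -1.21 (SE 0.24, edgeR adjusted p = 0.0939). P3h3, a prolyl 3-hydroxylase family member, differed by -0.48 (SE 0.16, edgeR adjusted p = 0.208), or -0.28 without control tumour 2.

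Among 12 genes for processing and cross-linking, 9 were below 0 (48.2% of all genes), with a median of -0.45 (7 and -0.14 without control tumour 2). Loxl2, a lysyl oxidase that cross-links collagen, was at 130, 205 and 129 CPM in controls, 61.8 and 56.9 CPM in responders, 69.6 CPM in the unmarked tumour and 71.5 and 44.8 CPM in non-responders. Every Smyd3 ASO tumour was below every control, and the adjusted p of 0.0656 (edgeR, log2 fold change -1.34, SE 0.20) was the lowest of all genes, shared with others. Adamts2, which removes the amino-terminal propeptide of fibrillar procollagens, differed by -0.90 (SE 0.24, edgeR adjusted p = 0.145), or -0.56 without control tumour 2.

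Of 16 collagen-binding proteoglycans and glycoproteins, 10 were below 0 (48.2% of all genes), with a median of -0.33 (9 and -0.10 without control tumour 2). Postn (periostin) was at 798, 1190 and 869 CPM in controls and 501 to 592 CPM in Smyd3 ASO tumours, a log2 fold change of -0.77 (SE 0.14, edgeR adjusted p = 0.0910). Thbs2 (thrombospondin 2) differed by -0.86 (SE 0.22, edgeR adjusted p = 0.140), or -0.53 without control tumour 2. Of 9 collagen receptors, 8 were below 0 (48.2% of all genes), with a median of -0.20 (5 and -0.022 without control tumour 2). The fibroblast integrin gene Itga11 was at 24.4 to 33.5 CPM in controls and 9.81 to 20.7 CPM in Smyd3 ASO tumours, and the collagen uptake receptor Mrc2 at 62.2 to 113 and 42.8 to 54.2 CPM, both without overlap. Their log2 fold changes were -0.95 (SE 0.22, edgeR adjusted p = 0.106) and -0.77 (SE 0.18, edgeR adjusted p = 0.112), and that of Mrc2 was -0.46 without control tumour 2.

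All 16 basement membrane partners were below 0 in the arm comparison (48.2% of all genes), with a median of -0.66. At an unadjusted p under 0.05, 8 were lower (7.0% of all genes). Without control tumour 2, 15 were below 0, with a median of -0.30. Lama5, the laminin alpha 5 chain, fell in responders against controls by 1.27 on the log2 scale (edgeR adjusted p = 0.0388). It was at 532, 379 and 371 CPM in controls, 200 and 155 CPM in responders, 252 CPM in the unmarked tumour and 280 and 289 CPM in non-responders. The responders were the lowest tumours and the controls the highest, and leaving out any tumour but the unmarked tumour brought the adjusted p above 0.05 (range 0.0389 to 0.315).

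Fibroblasts are the main source of fibrillar collagen. Fibroblast and pericyte markers summed to 741 to 1190 CPM in controls and 574 to 816 CPM in Smyd3 ASO tumours, which overlapped. Of 10 markers 8 were below 0 (48.2% of all genes), with a median of -0.43 (8 and -0.19 without control tumour 2), and all were detected in each tumour. Endothelial markers summed to 283 to 502 and 199 to 375 CPM, and leukocyte markers to 341 to 514 and 327 to 729 CPM. Of 8 endothelial markers 7 were below 0 (48.2% of all genes), with a median of -0.23 (3 and 0.11 without control tumour 2). Leukocyte markers went the other way, with 1 of 8 below 0 and a median of 0.37 (0 and 0.71 without control tumour 2). The part of these cells in the collagen values was not tested.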

How the data were processed

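The authors deposited 1 table of RSEM expected counts per gene for 8 bulk RNA libraries made with a stranded mRNA kit per the labels' protocols. Per the submitters' processing notes the tools were RSEM 1.3.0, STAR 2.7.0f, cutadapt 1.18 and bcl2fastq 2.17 and the build was mm10. Their settings and the annotation are not given in the sources used here. All 55450 identifiers are in GENCODE M21, which gave positions and transcript lengths. From these deposited expected counts, rounded to whole numbers, CPM was computed with TMM factors of 0.9638 to 1.04. Genes were tested where at least 2 libraries reached 0.424 CPM (10 reads in the median library) and the total was at least 15 reads. The main test was edgeR 4.0.16 (quasi-likelihood, robust, two-sided, R 4.3.3) with Benjamini-Hochberg adjustment over 16911 genes and a threshold of 0.05. The arms were fitted as 3 against 5 tumours. The comparisons by response mark came from a model of 4 groups over all 8 tumours, so that the spread is shared. The unmarked tumour was a group of its own in that model and so added nothing to the spread. DESeq2 1.42.0, limma voom (limma 3.58.1), other size factors, no filter, each tumour left out, the replicate number as a block and a muscle score as covariate were alternatives. The DESeq2 fits were run without the count filter, so they differ from the main test in tool and in filter. The scripts were tested on simulated data.

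Levels per kilobase use the length of the principal transcript, a choice made after the annotation was seen, because retained introns lengthen the union of exons. The members, classes and lists were chosen with earlier results of these data known. Named members are every gene called, the 3 most abundant per kilobase of each class and the 5 smallest p-values in the arm comparison and in responders against non-responders. From each pathway list the text names the genes called, or else the 2 smallest p-values in the arm comparison. The counting error at this depth is small for abundant genes, since 1 CPM is 22.1 to 27.26 reads. Protein sequences were not used here.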

Additional observations from a re-analysis of the deposited data

Results flagged for a closer look

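In 4 of the 41 genes tested, 1 of the 5 Smyd3 ASO tumours stood far from the other 4, by a gap to its neighbour of more than 0.71 of the whole range (Dixon's critical value). Chance gives such a gap in about 1 of 20 groups. Col6a1 was at 363 CPM in responder 1 and 275 to 297 CPM in the others. Col11a2 was at 7.18 CPM in responder 1 and 2.79 to 3.80 CPM in the others. Col4a3 was at 4.38 CPM in responder 1 and 0.967 to 1.48 CPM in the others. Col23a1 was at 41.3 CPM in non-responder 1 and 9.81 to 14.9 CPM in the others.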

How the results depend on the processing

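Other size factors (RLE) kept each named value on its side of the threshold and in its direction. Genes called in the arm, responder against non-responder, responder against control and non-responder against control comparisons numbered 1029, 230, 1107 and 336 with DESeq2, against 0, 0, 280 and 0 with edgeR, and the collagens among them numbered 14, 1, 14 and 6 against 0, 0, 3 and 0. With limma voom 135 genes were called in responders against controls. Without the count filter 52, 7, 499 and 32 genes were called, with 3 collagens in the arm comparison and 5 in responders against controls. The mean of responders and non-responders against controls gave 25 genes. Leaving out 1 tumour at a time gave 0 to 259 genes and 0 to 4 collagens in the arm comparison, 0 to 21 genes in responders against non-responders, 0 to 287 genes and 0 to 3 collagens in responders against controls, and collagen medians of -0.67 to -0.15 for responders and -0.79 to -0.14 for non-responders against controls, the highest without control tumour 2. Where this left 1 tumour in a group, that tumour was assumed to vary like the others.

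Same-numbered tumours of the arms did not deviate together (correlations of -0.0344, 0.000152 and 0.0764), so the numbers were not taken as pairs. With the replicate number as a block, over the 6 numbered tumours, 245 genes and 6 collagens were called, and without the block 286 and 5.

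Leaving out 1 tumour turned the direction of these genes. Between arms the range was -0.53 to 1.0 for Col10a1, -0.36 to 0.11 for Col16a1, -0.69 to 0.0064 for Col18a1, -0.14 to 0.73 for Col28a1, -0.50 to 0.13 for Col8a1 and -0.13 to 0.20 for Col8a2. Between responders and non-responders it was -0.029 to 0.21 for Col1a2, -0.35 to 0.32 for Col6a3, -0.37 to 0.11 for Col8a1 and -0.57 to 0.72 for Col8a2, and Col7a1 in non-responders against controls ranged from -0.43 to 0.01. With limma voom Col10a1 turned to 0.088 between arms and Col8a2 to 0.058 between responders and non-responders. The cause was not tested.

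With the muscle score as covariate the arm values turned to 3.14 (Col10a1), 0.019 (Col12a1), 0.17 (Col16a1), 0.49 (Col17a1), 0.96 (Col18a1), 1.09 (Col23a1), -0.66 (Col6a4), 0.87 (Col7a1), 0.55 (Col8a1), -1.19 (Col9a1), -2.21 (Col9a2), -1.04 (Col9a3), 0.18 (Smyd3) and 0.10 (Thbs2). Responder against non-responder values turned to 0.72 (Col10a1), 0.48 (Col18a1), 0.45 (Col1a1), 0.46 (Col6a3), 0.56 (Col8a1) and -0.25 (Col9a1). The arm values extrapolate, since the score does not overlap between arms. Summed muscle markers also did not overlap between responders (2600 and 13000 CPM) and non-responders (754 and 1110 CPM). The responder against non-responder values are limited in the same way.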
